A study of Mus musculus with 12 samples.

Results

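The comparison described here sets 3 RNA-seq libraries of islets of Langerhans taken 1 week after inactivation of Taf4 in beta cells (Taf4 mutant islets) against 3 libraries of islets with intact Taf4 (wild type), 6 of the 12 samples of the series. It runs across the 20180 genes that passed the filter on low counts, of 34820 in the table. Both groups were adult C57/Bl6 mice that carried a tamoxifen-inducible Cre recombinase driven by Ins1 and had been injected with tamoxifen. The mutant mice carried floxed Taf4 on both alleles, and the wild type carried none. Each library was made from the islets of a pair of mice, so the 3 libraries of a group are separate pools. The Cre acts in beta cells only, so other islet cells keep Taf4. The labels give no time for the wild type. The cDNA was amplified before the libraries were made.

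Taf4 belongs to TFIID, a complex built around the TATA-binding protein that settles on core promoters so that RNA polymerase II can start transcription there. Beta cells make insulin, alpha cells glucagon, delta cells somatostatin and PP cells pancreatic polypeptide. An islet also contains blood vessels, supporting cells and leukocytes, and an isolated one can bring along RNA of acinar cells, which make digestive enzymes. In such bulk RNA, fewer cells of a type and less RNA per cell cannot be told apart.

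The 6 libraries held between 13865518 and 20080265 counts. Taf4, listed as Taf4a, stood at 29.7, 23 and 29.8 CPM (read counts relative to the TMM-scaled size of the library) in wild-type replicates 1 to 3 and at 27.2, 37 and 29.1 CPM in mutant replicates 1 to 3. The groups overlapped, with a log2 fold change (mutant minus wild type, ± standard error) of 0.18 ± 0.16 and edgeR adjusted p = 0.527. The noncoding 4921531C22Rik, with a log2 fold change of 1.39, overlaps Taf4a on the opposite strand, and the counting is not stated to use strand, so their reads cannot be told apart. Since the floxed exons are not counted apart from the others, the level of Taf4a checks neither the deletion nor the labels. Its paralog Taf4b was at 7.75, 5.9 and 3.89 CPM against 7.53, 8.8 and 7.24 CPM, which also overlapped. Sex-linked transcripts separated the groups. The 4 Y-linked genes measured gave 1599, 2254 and 1635 counts in wild-type libraries and 0, 3 and 0 in mutant ones, while Xist, the X-inactivation RNA, held 389, 122 and 330 counts against 29847, 25771 and 24615. Genotype and sex therefore cannot be told apart in these libraries.

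The acinar RNA share also differed between the groups. A list of 38 acinar genes took 55.1, 30.8 and 50.3% of all counts in wild-type replicates 1 to 3 and 7.36, 26.1 and 19.2% in mutant replicates 1 to 3. Every mutant library lay below every wild-type library, with the closest pair at 26.1 and 30.8%. The means were 45.4 ± 12.9% (SD, n = 3) and 17.6 ± 9.49% (SD, n = 3; exact permutation test, two-sided, p = 0.1, the smallest value that 3 against 3 allows). Gcg, which encodes glucagon, accounted for 2.92 ± 0.872% (wild type) and 15.6 ± 1.06% (mutants) of all counts, and RNAs of the mitochondrial genome took 2.16 ± 0.310% and 4.59 ± 1.00%, also without overlap. Ins1 and Ins2 together took 11.5 ± 3.39% and 16.5 ± 3.26%, and there the libraries overlapped (exact permutation p = 0.2).

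**Figure D1:**
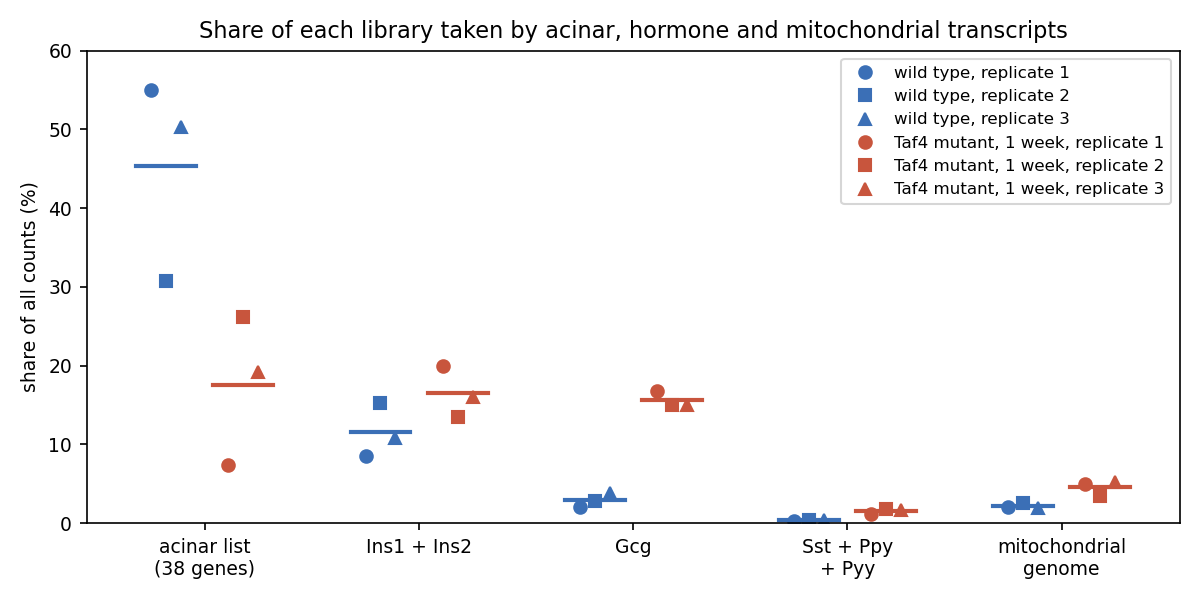
Share of all counts, in percent, taken in each library by the 38 acinar genes, both insulin genes, Gcg, the other islet hormones Sst, Ppy and Pyy, and the mitochondrial genome, with points for libraries (blue, wild type; red, Taf4 mutant at 1 week; shapes, replicates) and bars for means. The acinar share lay at 30.8 to 55.1% in wild-type libraries and at 7.36 to 26.1% in mutant ones, and the Gcg share was higher in each mutant library.

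Across the genome, 333 genes were called higher and 589 lower in the mutants (edgeR quasi-likelihood test, Benjamini-Hochberg adjusted p below 0.05 and a log2 fold change beyond 1), which is 1.65% and 2.92% of the genes tested and 4.57% in all. On the adjusted p alone, 1077 genes rose (5.34%) and 892 fell (4.42%), 9.76% in all. Genes called higher had a median log2 fold change of 1.25, with 226 of 333 between 1 and 1.5 and 17 above 3. Genes called lower had a median of -1.62, with 244 of 589 between -1 and -1.5 and 56 below -3. The median over all genes tested was -0.04. The libraries of the groups did not overlap at 321 of the 333 genes called higher and 544 of the 589 called lower, beside 15.1% of all genes tested with every mutant library above and 15.7% with every one below. The share of higher calls, 36.1% here, moved with the processing. Without scaling beyond library totals all genes shifted by 0.19 and 62.8% of calls were higher, and with scaling on 12 pan-endocrine genes they shifted by -0.25 and 11% were higher. The share was 37.6% with median-of-ratios size factors and 38.8% with TMM factors set without acinar genes. It was 60.8% with the acinar ratio as a covariate, described further on, and 36.9 to 52.6% with single libraries left out, highest without wild-type replicate 3. Leaving out single libraries moved the number of genes called lower by over 1.5 times, to 299 without mutant replicate 3, 220 without wild-type replicate 1 and 389 without wild-type replicate 2, and the number called higher to 221 without wild-type replicate 1.

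**Figure D2:**
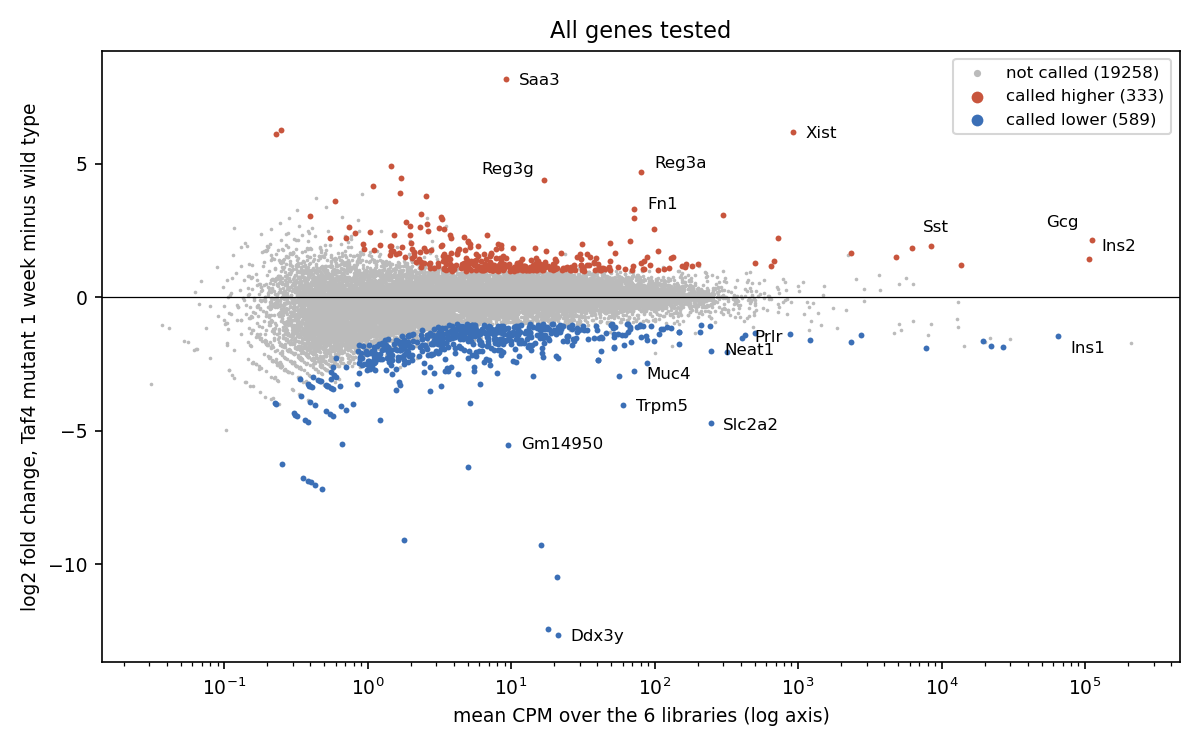
Log2 fold change (mutant at 1 week minus wild type, fitted) against the mean CPM of the 6 libraries on a log axis for the 20180 genes tested, with the 333 genes called higher in red and the 589 called lower in blue. Slc2a2 and Trpm5 lie well below the other genes of their level, and the fitted values of genes at or near 0 counts in one group, such as Saa3 and the Y-linked genes, depend on the prior count.

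Among non-overlapping genes of at least 10 CPM in a group, outside the acinar and sex-linked lists, the largest falls included transcripts known from beta cells. Slc2a2, the glucose transporter GLUT2, went from 390.1, 573 and 464 CPM to 33.2, 7.25 and 13.2 CPM (-4.73 ± 0.38, edgeR adjusted p = 4.1e-07). The noncoding 1700112D23Rik fell from 9.53, 13.9 and 9.41 CPM to 1.98, 0.77 and 0.644 CPM (-3.25 ± 0.42, edgeR adjusted p = 0.000129). It lies on the strand opposite Slc2a2 and overlaps it, and reads of such overlapping genes cannot be told apart here. Trpm5, a calcium-activated cation channel, fell from 114, 124 and 105 CPM to 9.45, 5.46 and 6.04 CPM (-4.03 ± 0.22, edgeR adjusted p = 2.29e-09). For both Slc2a2 and Trpm5 the highest mutant library was replicate 1, the mutant library with the lowest acinar share, and it stayed far below every wild-type library.

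Cox6a2, a subunit of cytochrome c oxidase known from muscle, fell from 67.2, 123 and 112 CPM to 15.9, 10.7 and 12.6 CPM (-2.95 ± 0.22, edgeR adjusted p = 1.19e-07), and the integrin gene Itgad overlaps it on the opposite strand. Th, tyrosine hydroxylase of catecholamine synthesis, fell from 13.9, 19.9 and 42.1 CPM to 4.75, 2.31 and 2.74 CPM (-2.94 ± 0.37, edgeR adjusted p = 9.56e-05). Muc4, a membrane mucin, fell from 126, 138 and 114 CPM to 20.6, 25.2 and 9.58 CPM (-2.76 ± 0.28, edgeR adjusted p = 7.47e-06), and Muc20 overlaps it on the opposite strand. The rule of choice required groups clear of one another. Among these 3 genes the wild type varied most at Th, where replicate 3 was highest. Col6a6, a collagen VI chain, was even within each group at 62.1, 77 and 63 CPM against 13.5, 14.3 and 11.4 CPM (-2.36 ± 0.19, edgeR adjusted p = 2.77e-07). Fer1l6, of the ferlin family (-2.42 ± 0.34, edgeR adjusted p = 0.000256), the organic anion transporter Slco1a6 (-2.41 ± 0.33, edgeR adjusted p = 0.000208) and the short-chain dehydrogenase Sdr9c7 (-2.35 ± 0.39, edgeR adjusted p = 0.00121) also fell. The adenosine receptor Adora3 was at 3.92, 20.1 and 17.9 CPM against 2.96, 0.77 and 2.09 CPM (-2.85 ± 0.62, edgeR adjusted p = 0.00792), so that wild-type replicate 1 came close to the mutants, and the table holds this symbol under more than one identifier.

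Some large falls moved with the acinar share. Casp9, the initiator caspase of the mitochondrial death pathway, was at 219, 60.7 and 170.3 CPM against 23.4, 34.2 and 24 CPM (-2.46 ± 0.33, edgeR adjusted p = 0.000178). Its low wild-type value belongs to replicate 2, the wild-type library with the fewest acinar counts, and Casp9 overlaps the elastase gene Cela2a on the opposite strand, so their reads cannot be told apart. With the acinar ratio as a covariate, described further on, its value was -2.09 (edgeR adjusted p = 0.0085). Gjb1, a gap junction protein, was at 22.4, 9.25 and 20.2 CPM against 1.98, 4.04 and 4.02 CPM (-2.37 ± 0.36, edgeR adjusted p = 0.000602), and its value with that covariate was -1.47 (edgeR adjusted p = 0.0604).

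The largest fall by the rule above, which leaves out sex-linked genes, was that of Gm14950 on the X chromosome, from 24.4, 19.4 and 12.3 CPM to 0.741, 0.257 and 0.161 CPM (-5.52 ± 0.45, edgeR adjusted p = 4.1e-07). Its tested neighbours 3110007F17Rik, Astx6 and Gm17503 were called lower with it, a run of 4 adjacent tested genes on X between 120217104 and 120780558 (NCBIM37). Astx6, of a multicopy X-linked family, held 132, 143 and 78 counts in wild-type libraries against 1, 0 and 4 in mutant ones, and Gm17503 held 51, 51 and 27 against 0, 0 and 0. Reads that matched several copies were not counted. Beside this run and the 4 Y-linked genes, 6 runs of 3 adjacent tested genes were called in 1 direction. Mpp2, Ppy and Pyy rose together on chromosome 11 and histone genes rose in 2 runs on chromosome 13, while Slc6a13, Slc6a12 and Iqsec3 fell together on chromosome 6.

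By the same rule, the largest rises were led by Saa3, Reg3a and Reg3g. Saa3, an acute phase apolipoprotein, held 1, 1 and 0 counts in wild-type libraries and 66, 501 and 234 in mutant ones, a ratio of 325 with an exact 95% counting interval of 89.6 to 2686. Reg3a, Reg3b and Reg3g encode C-type lectins with antibacterial activity. Reg3a was at 2.34, 0.853 and 15.3 CPM against 107, 161 and 201 CPM (4.70 ± 0.55, edgeR adjusted p = 4.61e-05), and Reg3g was at 2.34, 0.782 and 1.63 CPM against 23.4, 35.4 and 38.5 CPM (4.39 ± 0.32, edgeR adjusted p = 1.19e-07). Reg3b was at 33.3, 7.18 and 149 CPM against 435, 575 and 597 CPM (3.09 ± 0.58, edgeR adjusted p = 0.0030), and its log2 fold change was 4.78 without wild-type replicate 3. The mutant libraries were close to one another in all 3 lectins, while the wild type spread widely in Reg3a and Reg3b, with replicate 3 highest. Of 6 Reg family genes tested these 3 were called higher and 0 lower (50%, beside 4.57% of all genes), with values from -0.98 to 4.70. The list as a whole summed to between 3840 and 20798 CPM in wild-type libraries and between 3933 and 14943 CPM in mutant ones, which overlap.

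Fn1, fibronectin, rose from 9.9, 10.9 and 18.8 CPM to 22.8, 272 and 100.0 CPM (3.32 ± 0.55, edgeR adjusted p = 0.0012). Lyz2, lysozyme of myeloid cells, rose from 12.1, 16.5 and 20.3 CPM to 38.2, 238 and 107 CPM (2.97 ± 0.41, edgeR adjusted p = 0.000241). C3, the central complement protein, rose from 25.3, 35.7 and 24.5 CPM to 41.6, 335 and 135 CPM (2.58 ± 0.46, edgeR adjusted p = 0.0022), and its log2 fold change was 1.66 without mutant replicate 2. Saa3, Fn1, Lyz2 and C3 shared one order of the mutant libraries, with replicate 2 highest and replicate 1 lowest. The acinar share had the same order in these libraries, and its part in this was not tested. Edn3, the signalling peptide endothelin 3, was even in the mutants and rose from 31.1, 15.6 and 28.4 CPM to 109, 119 and 98.6 CPM (2.13 ± 0.21, edgeR adjusted p = 7.23e-06). Peg10, an imprinted gene derived from a retrotransposon, rose from 19.1, 8.96 and 30.6 CPM to 46.1, 112 and 78.2 CPM (2.02 ± 0.33, edgeR adjusted p = 0.00102).

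**Figure D3:**
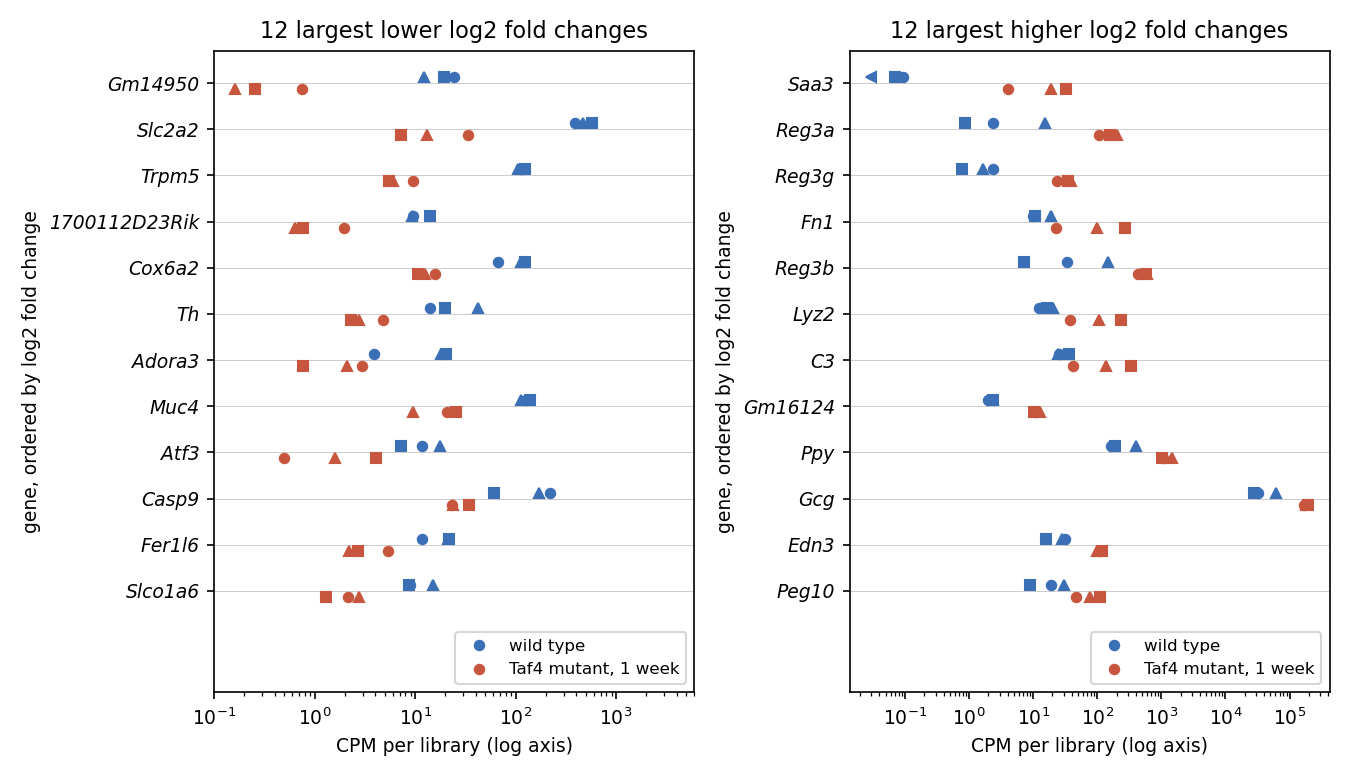
CPM per library on a log axis for the 12 genes with the largest falls (left) and rises (right) among genes of at least 10 CPM in a group whose libraries did not overlap, outside the acinar and sex-linked lists, with shapes as replicates and a left-pointing marker for the wild-type library with no count of Saa3. Wild type (blue) and mutant (red) lie apart at each gene because genes were chosen so, and the mutant values of Saa3, Fn1, Lyz2 and C3 are widely spread.

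Outside the acinar list, Gcg and Ins2 gained most in CPM and Ins1 lost most. Gcg went from 32052, 28124 and 62336 CPM to 170288, 193771 and 182177 CPM (2.16 ± 0.38, edgeR adjusted p = 0.00175). Ins2 went from 52287, 52568 and 69628 CPM to 153759, 154664 and 159142 CPM (1.42 ± 0.37, edgeR adjusted p = 0.022), whereas Ins1 went from 78838, 97504 and 107287 CPM to 47702, 18573 and 36480.5 CPM (-1.46 ± 0.34, edgeR adjusted p = 0.0106). The insulin genes are similar in sequence, and reads were kept only where they matched a single gene. They moved apart, and the ratio of Ins2 to Ins1 counts went from 0.663, 0.539 and 0.649 to 3.22, 8.33 and 4.36. The call of Ins2 was lost with pan-endocrine scaling (0.0519) and without mutant replicate 3 (0.0571), adjusted p in parentheses. It was also lost without wild-type replicate 1 (0.0858), without wild-type replicate 2 (0.0786) and with a block for the replicate number over the 6 libraries (0.124). The call of Ins1 was lost without scaling (0.0522), over only the 6 libraries (0.0524) and with that block (0.103). Next after Ins2 in gain came mt-Rnr2, a ribosomal RNA of the mitochondrial genome, from 8581, 6655 and 9445 CPM to 17605, 15570.5 and 24624 CPM (1.23 ± 0.38, edgeR adjusted p = 0.0476), and its call was lost with pan-endocrine scaling (0.103), without mutant replicate 1 (0.0542), without mutant replicate 3 (0.165), without wild-type replicate 1 (0.126), without wild-type replicate 2 (0.153) and without wild-type replicate 3 (0.0711).

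Further large losses in CPM outside the acinar list differed in how steady they were. Prlr, the prolactin receptor, fell from 513, 605 and 686 CPM to 219.7, 211 and 205 CPM (-1.51 ± 0.15, edgeR adjusted p = 5.36e-06), and Papss2, which makes the sulphate donor of sulphation reactions, from 579.8, 656 and 620.0 CPM to 278, 201 and 219 CPM (-1.41 ± 0.17, edgeR adjusted p = 7.81e-05). The nuclear noncoding RNA Neat1 fell from 425, 357 and 415 CPM to 100.3, 139.6 and 58.5 CPM (-2.0 ± 0.26, edgeR adjusted p = 0.000136). In these 3 genes the lowest wild-type library was above the highest mutant one by a wide margin, and the calls held in each alternative. Sel1l, of the degradation of misfolded proteins in the ER, was at 952, 443 and 773 CPM against 198, 374 and 286 CPM (-1.34 ± 0.25, edgeR adjusted p = 0.00281), and Nupr1, a nuclear protein of the stress response, was at 324, 275 and 384 CPM against 83.4, 199.5 and 191 CPM (-1.05 ± 0.24, edgeR adjusted p = 0.0103). Sel1l varied widely in the wild type and Nupr1 in the mutants, and with the acinar covariate neither was called, with Sel1l at -1.03 (edgeR adjusted p = 0.0554) and Nupr1 at -0.41 (edgeR adjusted p = 0.28).

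Because TFIID acts at core promoters, the 100 bases before the annotated start are shown for leading genes of each direction and for Ins1 and Gcg, as RefSeq gives them on GRCm38.p6, from 5′ to 3′ on the strand of the gene. Capitals mark TATAAA, the core of the TATA box. The windows are chr3:28697803-28697902 (plus strand) for Slc2a2, chr7:143094643-143094742 (minus strand) for Trpm5, chr19:52264197-52264296 (plus strand) for Ins1, chr7:46715677-46715776 (minus strand) for Saa3, chr6:78380609-78380708 (plus strand) for Reg3a, chr6:78468875-78468974 (minus strand) for Reg3g and chr2:62483654-62483753 (minus strand) for Gcg.
Slc2a2: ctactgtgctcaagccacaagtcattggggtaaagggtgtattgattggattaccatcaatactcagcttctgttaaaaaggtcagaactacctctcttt
Trpm5: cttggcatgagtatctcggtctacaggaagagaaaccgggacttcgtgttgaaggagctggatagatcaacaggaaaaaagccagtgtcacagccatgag
Ins1: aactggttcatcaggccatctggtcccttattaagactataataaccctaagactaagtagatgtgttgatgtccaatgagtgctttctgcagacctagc
Saa3: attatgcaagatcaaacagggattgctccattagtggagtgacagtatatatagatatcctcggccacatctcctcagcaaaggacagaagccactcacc
Reg3a: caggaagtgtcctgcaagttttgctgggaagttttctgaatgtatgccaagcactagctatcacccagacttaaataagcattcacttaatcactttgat
Reg3g: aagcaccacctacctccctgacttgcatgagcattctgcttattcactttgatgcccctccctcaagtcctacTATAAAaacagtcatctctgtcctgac
Gcg: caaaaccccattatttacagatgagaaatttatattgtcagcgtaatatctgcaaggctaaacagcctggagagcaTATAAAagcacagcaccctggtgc
The letters begin 24 bases before the start in Gcg and 27 before it in Reg3g, genes that rose, and they are not in the windows shown of Slc2a2, Trpm5, Ins1, Saa3 or Reg3a. Each window ends at the annotated start, and whether transcription begins there in islets was not tested. A TATAAA outside the windows would not be seen, so its absence here does not show that a gene lacks a TATA box.

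Over the 12584 tested genes matched to a promoter by symbol, TATAAA stood on the strand of the gene, wholly between 40 and 20 bases before the start, at 250 genes (1.99%). It stood there at 7 of 202 genes called higher (3.47%, 95% Wilson interval 1.69 to 6.98%) and at 17 of 378 called lower (4.5%, 2.83 to 7.08%), or 14 of 366 (3.83%) without the acinar list. In the wider window of 60 to 10 bases, which takes in the site of Gcg, the shares were 4.46, 5.82 and 2.5% for genes called higher, called lower and all tested. Of all 32851 windows in the promoter table, 613 (1.87%) held it between 40 and 20 bases. Muc4, Fos and Gstm1 were among the genes called lower with these letters, and Ppy, Reg3b, Rbp4 and Prdx1 were among those called higher. GGGCGG, the GC box, stood on either strand between 250 bases before and 50 after the start at 60.4% of genes called higher, 48.4% of those called lower, 59.8% of all tested and 35.7% of all windows in the table. For CCAAT these shares were 39.1, 45.5, 42.2 and 37.4%, and for CACGTG 10.4, 7.94, 10.6 and 7.15%.

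The called genes also differed in transcript length. Genes called higher had a median length of 954.5 bases and genes called lower one of 1892 bases, from the length the table gives. Of the 5045 tested genes with the shortest transcripts 157 were called higher and 126 lower, with a median log2 fold change of 0.06. Of the 5045 with the longest, of 2785 to 26562 bases, 57 were called higher and 174 lower, with a median of -0.10. The difference of 0.16 between these medians was 0.15 to 0.18 with each library left out in turn and 0.23 with the acinar ratio as a covariate. Of the 793 genes tested on the X chromosome 26 were called higher (3.28%) and 15 lower (1.89%), beside 1.65% and 2.92% of all genes tested. Outside X and Y there were 307 genes called higher (1.58%) and 570 lower (2.94%).

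Of 38 acinar genes 17 were called lower and 0 higher, with a median of -1.36 beside -0.04 for all genes. The median was 0.40 with the acinar covariate described next, which is computed from these same 38 genes. Ctrc, a chymotrypsin, went from 152, 58 and 105 CPM to 12.5, 55.7 and 29.7 CPM (-1.69 ± 0.37, edgeR adjusted p = 0.00785), and Ptf1a, a factor of acinar identity, from 8.87, 4.41 and 7.05 CPM to 0.803, 2.63 and 2.25 CPM (-1.84 ± 0.45, edgeR adjusted p = 0.0153). The call of Ctrc was lost without wild-type replicate 1 (0.0701), and that of Ptf1a without mutant replicate 1 (0.0536) and without wild-type replicate 1 (0.117), adjusted p in parentheses. Within the groups the acinar share was lowest in wild-type replicate 2 and mutant replicate 1. In both of these libraries 36 of the 38 acinar genes lay more than 0.5 log2 units under the other libraries of their group. The same held for 103 of the other 572 genes called lower (18%), 14 of 333 called higher (4.20%), 487 of 20142 genes tested outside the list (2.42%) and 0 of 12 beta cell markers.

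With the log2 ratio of acinar to other counts added to the model as a covariate, 613 genes were called higher and 396 lower. Of the 333 genes called higher 252 were called again (75.7%), and of the 589 called lower 211 (35.8%). Of the lower genes 21 changed sign, 11 of them in the acinar list, and 0 of its 17 calls were kept. The covariate is computed from the acinar list itself, so the loss of these 17 calls was largely fixed in advance. Like the main model, this one was fitted over all 4 groups, so its covariate slope also rests on the later mutant groups. The 5-week libraries, replicates 2 and 3, held 0.236 and 0.0368% acinar counts. These shares lay outside the 7.36 to 55.1% of the libraries compared here. How far the covariate values depend on the 5-week libraries was not tested. Among the lower calls kept were Slc2a2 (-5.37), Trpm5 (-4.08), Ucn3 (-2.27), Prlr (-1.61), Papss2 (-1.81) and Col6a6 (-2.72). Among those lost were Cckar, a cholecystokinin receptor of acinar cells, from -1.76 to -0.05 (edgeR adjusted p = 0.937), and Derl3, of the degradation of misfolded proteins, from -2.02 to -1.10 (edgeR adjusted p = 0.0628).

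**Figure D4:**
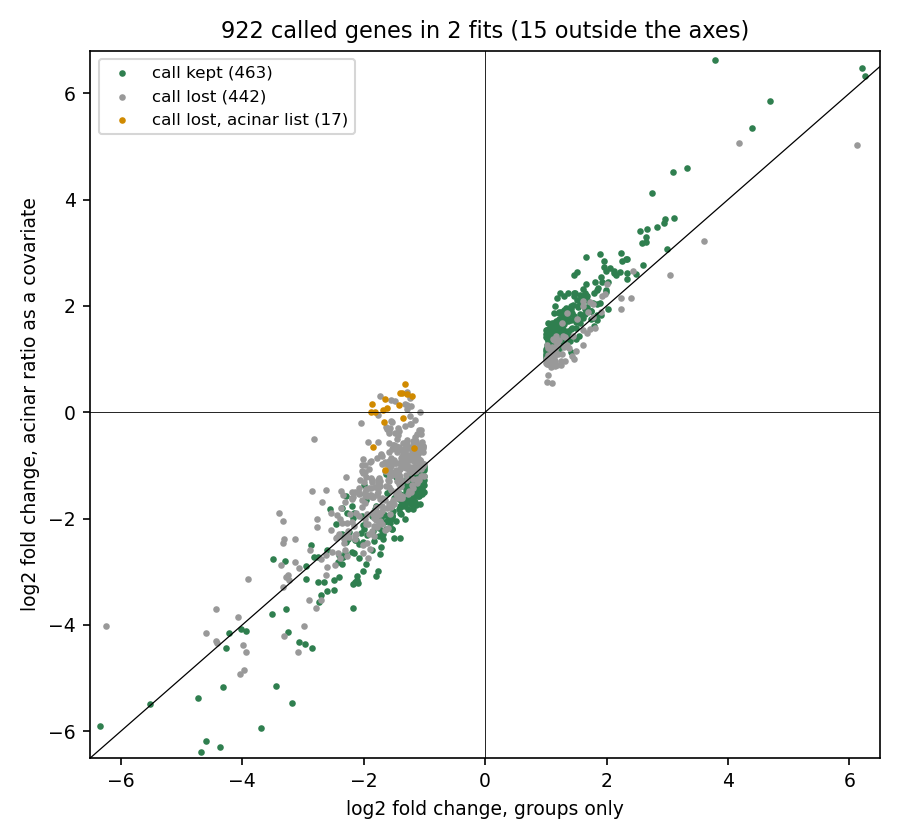
Log2 fold changes (mutant minus wild type) of called genes in the model with groups only (x axis) and with the acinar ratio as a covariate (y axis), with calls kept in green, calls lost in grey and acinar genes in orange, and the line of equality. The median of genes called higher went from 1.25 to 1.57 and that of genes called lower from -1.62 to -1.54, and 15 called genes lie outside the axes.

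Over the 15 alternatives of model, scaling, filter and left-out libraries, 94 of the 333 genes called higher and 97 of the 589 called lower were called in the same direction each time. The kept genes named in this paragraph were picked among these after their values were seen. Kept lower were the glucagon receptor Gcgr (-1.65), the serotonin receptor Htr1a (-2.49), the growth factor receptor Fgfr2 (-1.97), Pdyn, which encodes opioid peptides (-2.33), and the potassium channels Kcnh1 (-2.07) and Kcnh5 (-2.0). Kept higher were Pdk4, a kinase that restrains pyruvate oxidation (1.64), Fbp1 of gluconeogenesis (1.92), the calcium-binding Calb1 (1.53), the cell cycle inhibitor Cdkn1a (1.5) and the secreted Gpx3 (1.36) and Cst3 (1.31). Sgce (1.27) and Asb4 (1.61), like Peg10 on chromosome 6, were also kept higher.

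Of 12 beta cell markers 4 were called lower and 1 higher (41.7%), with a median of -0.66. The share to set beside this list and those below is 4.57% of all genes tested, 1.65% higher and 2.92% lower. Ucn3, the peptide urocortin 3 of mature beta cells, fell from 435, 581 and 538 CPM to 177, 77.2 and 122 CPM (-2.05 ± 0.24, edgeR adjusted p = 4.56e-05), and every mutant library lay far below every wild-type one. On the adjusted p alone 7 fell, which adds Glp1r, the zinc transporter Slc30a8 (-0.71 ± 0.16, edgeR adjusted p = 0.00809) and the factor Nkx6-1 (-0.68 ± 0.16, edgeR adjusted p = 0.0121). The adjusted p of Slc30a8 no longer passed without scaling (0.227) and without wild-type replicate 2 (0.0553), and that of Nkx6-1 no longer passed without scaling (0.284) and without mutant replicate 3 (0.0739). Of 17 islet transcription factors 0 passed both thresholds. Pdx1, a master factor of beta cells, was at 95.8, 93.5 and 101 CPM against 121, 87.9 and 88.4 CPM (0.04 ± 0.16, edgeR adjusted p = 0.917), and its value was -0.34 with the acinar covariate, -0.21 with pan-endocrine scaling and -0.10 without mutant replicate 1. Mafa, a factor of mature beta cells, was at 10.5, 5.97 and 7.33 CPM against 16.2, 14.5 and 8.29 CPM (0.73 ± 0.28, edgeR adjusted p = 0.111), and passed the adjusted p without mutant replicate 3 (0.0478), without scaling (0.0288) and without the filter on low counts (0.0111).

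Of 12 genes of glucose entry and fuel coupling Slc2a2 alone was called (8.33%, beside 4.57% of all genes). Of 22 ion channels Trpm5 was called lower and Kcnk3, a background potassium channel, higher, from 18.8, 12.6 and 23.5 CPM to 43.8, 62.5 and 51.2 CPM (1.53 ± 0.20, edgeR adjusted p = 0.000189). The subunits of the ATP-sensitive potassium channel Kcnj11 (-0.03, edgeR adjusted p = 0.902) and Abcc8 (0.33, edgeR adjusted p = 0.24) did not pass. Of 23 exocytosis genes 0 passed both thresholds. Of 21 hormone and neurotransmitter receptors 6 were called lower and 1 higher (33.3%, beside 4.57% of all genes), with a median of -0.55. With the acinar covariate 4 were called lower and 1 higher, and Cckar, named above, was among those lost. Gcgr fell from 13.8, 17.4 and 14.2 CPM to 5.0, 5.71 and 3.7 CPM (-1.65 ± 0.24, edgeR adjusted p = 0.000446) and Gipr, a receptor of the incretin GIP, from 23.8, 35.9 and 28.8 CPM to 14.3, 13.9 and 9.09 CPM (-1.24 ± 0.23, edgeR adjusted p = 0.00278), and the groups overlapped at neither. Gm11789 overlaps Gcgr on the opposite strand. Gjd2, the gap junction protein that couples beta cells, fell from 78.2, 96.9 and 81.9 CPM to 48.7, 33.1 and 46.5 CPM (-1.0 ± 0.15, edgeR adjusted p = 0.000637).

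Markers of the other endocrine cells were higher. Of 8 alpha cell markers tested 5 were called higher and 0 lower, with a median of 1.74. Irx1, a factor of alpha cells, rose from 8.59, 6.83 and 9.04 CPM to 30.1, 24.4 and 26.8 CPM (1.74 ± 0.19, edgeR adjusted p = 1.65e-05), and Ttr, transthyretin, from 1593, 2197 and 4217 CPM to 8475, 11154 and 9592 CPM (1.87 ± 0.31, edgeR adjusted p = 0.00113). Of 8 delta, PP and epsilon cell markers 5 were called higher and 1 lower, with a median of 1.26. Sst, somatostatin, went from 2853, 2604 and 5159 CPM to 7886, 18687 and 13613 CPM (1.92 ± 0.35, edgeR adjusted p = 0.00242) and Ppy, pancreatic polypeptide, from 164, 190.5 and 403 CPM to 1063, 1025 and 1491 CPM (2.24 ± 0.33, edgeR adjusted p = 0.000468). The hormones did not overlap between the groups, and wild-type replicate 3 held the most Gcg, Sst and Ppy of its group. Of 12 pan-endocrine genes 0 passed both thresholds, with a median of 0.23 that was -0.03 when these genes set the scale.

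**Figure D5:**
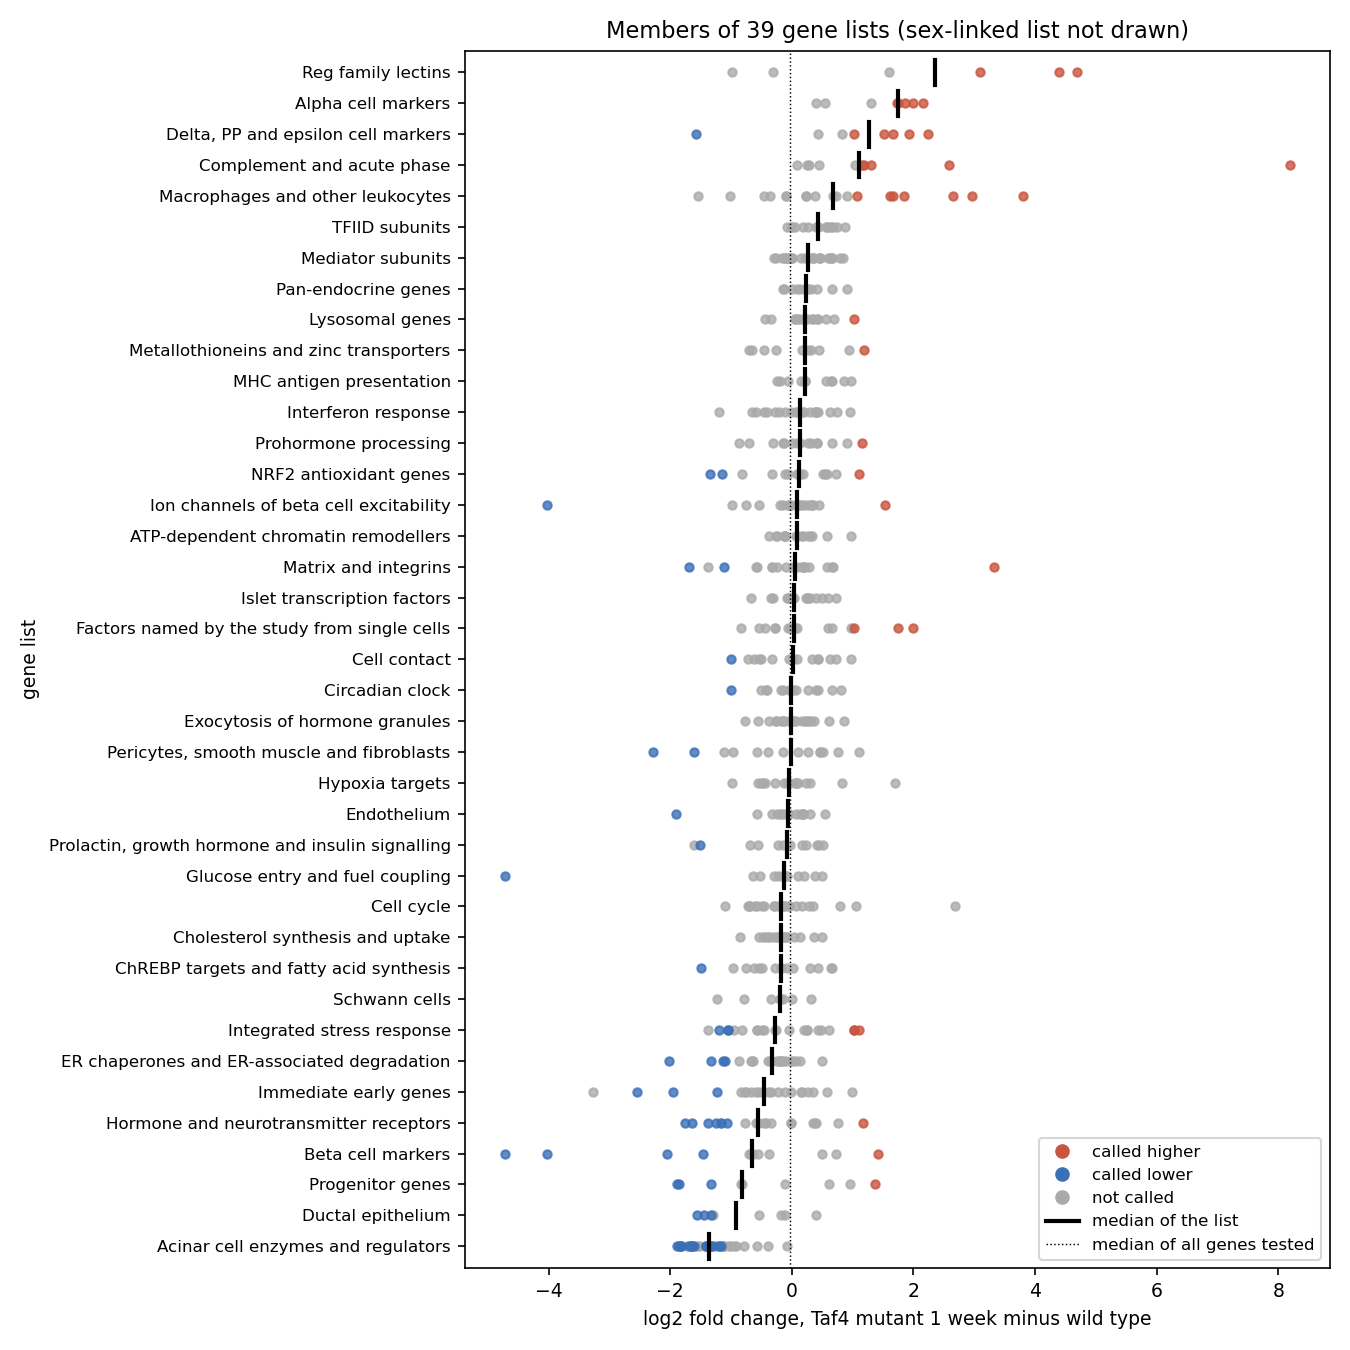
Log2 fold change (mutant at 1 week minus wild type) of each member of the gene lists, ordered by their medians (black bars), with members called higher in red, called lower in blue and not called in grey and the median of all genes tested (-0.04) as a dotted line. The Reg, alpha cell and delta, PP and epsilon cell lists have medians of 2.35, 1.74 and 1.26, and the acinar list has one of -1.36. Of the 6 Reg genes 3 were called, and the lowest lies at -0.98.

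Markers of other cell types moved unevenly. Of 19 macrophage and leukocyte markers 7 were called higher and 0 lower, with a median of 0.67, and the list summed to between 95.2 and 118 CPM in wild-type libraries and between 132 and 411 CPM in mutant ones. Tyrobp, an adaptor of myeloid receptors, rose from 2.99, 3.41 and 4.34 CPM to 8.77, 11 and 13 CPM (1.61 ± 0.25, edgeR adjusted p = 0.000853), whereas the pan-leukocyte Ptprc (-0.36, edgeR adjusted p = 0.495) and the macrophage receptor Csf1r (0.23, edgeR adjusted p = 0.635) did not pass. Of 14 markers of pericytes, smooth muscle and fibroblasts 2 were called lower, both of smooth muscle: Acta2 fell from 21.2, 27.9 and 56.6 CPM to 3.46, 9.24 and 9.01 CPM (-2.29 ± 0.34, edgeR adjusted p = 0.000552) and Myh11 from 26.7, 28.9 and 48 CPM to 10.1, 11.2 and 12.6 CPM (-1.62 ± 0.21, edgeR adjusted p = 0.000129). Of 16 endothelial markers 1 was called lower, Vwf (-1.90 ± 0.37, edgeR adjusted p = 0.00338), with -1.06 (edgeR adjusted p = 0.131) under the acinar covariate. The endothelial Emcn rose on the adjusted p alone (0.55 ± 0.16, edgeR adjusted p = 0.0373), though not with the acinar covariate (edgeR adjusted p = 0.147). Emcn also no longer passed without scaling (0.062) and with pan-endocrine scaling (0.196), edgeR adjusted p in parentheses. The same held without mutant replicate 1 (0.0797), without mutant replicate 3 (0.11), without wild-type replicate 1 (0.166) and without wild-type replicate 2 (0.0771). Of 8 Schwann cell markers 0 were called. Of 8 ductal markers Krt19 (-1.56), Muc1 (-1.44) and Sox9 (-1.33) were called lower, and their values with the acinar covariate were -0.29, -0.42 and -0.74, none past the test. The ductal Krt7 rose on the adjusted p alone (0.40 ± 0.12, edgeR adjusted p = 0.0461), though not with the acinar covariate (edgeR adjusted p = 0.195). Krt7 also no longer passed without scaling (0.157), with pan-endocrine scaling (0.466) and over only the 6 libraries (0.0501). Nor did it pass without mutant replicate 1 (0.0718), mutant replicate 2 (0.0765), wild-type replicate 1 (0.114), wild-type replicate 2 (0.0952) or wild-type replicate 3 (0.0654), each left out alone. The call of Krt19 was also lost by DESeq2 (0.106), over only the 6 libraries (0.0687), without mutant replicate 1 (0.0837), without mutant replicate 3 (0.128), without wild-type replicate 1 (0.193) and without wild-type replicate 3 (0.092). That of Muc1 was lost by DESeq2 (0.0731), over only the 6 libraries (0.0597), without mutant replicate 3 (0.0625), without wild-type replicate 1 (0.157) and without wild-type replicate 3 (0.0578), and that of Sox9 without mutant replicate 1 (0.0615) and without wild-type replicate 1 (0.16), with the adjusted p in parentheses, from edgeR unless DESeq2 is named.

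Of 22 genes of the integrated stress response 3 were called higher and 3 lower, and with the acinar covariate 1 was called higher and 0 lower. Ddit3, which encodes the stress factor CHOP, rose from 10.5, 12.4 and 10.3 CPM to 24.6, 22.1 and 20.8 CPM (1.02 ± 0.15, edgeR adjusted p = 0.000499), while Psat1 of serine synthesis fell from 49.2, 33.5 and 48.9 CPM to 16.7, 23.4 and 17.1 CPM (-1.20 ± 0.19, edgeR adjusted p = 0.000893), and neither overlapped. With the covariate Psat1 was at -0.72 (edgeR adjusted p = 0.0378). Of 24 ER chaperones and degradation factors 4 were called lower and 0 higher, with a median of -0.33. Sdf2l1, a cofactor of ER chaperones, fell from 95.1, 80.2 and 100.4 CPM to 40.5, 37.9 and 50.8 CPM (-1.09 ± 0.17, edgeR adjusted p = 0.00059) and was called with the acinar covariate too (edgeR adjusted p = 0.00689). It was the only one, as with that covariate 1 of the list was called lower and 0 higher, with a median of -0.15. Sel1l and Derl3, named above, were among the calls lost. Of 24 immediate early genes 3 were called lower and 0 higher (12.5%, beside 4.57% of all genes), with a median of -0.46. Among them Atf3 fell from 11.8, 7.25 and 17.6 CPM to 0.494, 4.11 and 1.61 CPM (-2.55 ± 0.46, edgeR adjusted p = 0.00226). Of 15 NRF2 antioxidant genes 1 was called higher and 2 lower: the peroxiredoxin Prdx1 rose from 79.9, 72.7 and 88.4 CPM to 141, 165 and 212 CPM (1.1 ± 0.20, edgeR adjusted p = 0.00226) and the glutathione transferase Gstm1 fell from 79.1, 63.6 and 81.8 CPM to 17.7, 39.6 and 30.6 CPM (-1.35 ± 0.21, edgeR adjusted p = 0.000704). With the covariate 2 of the list were called higher and 0 lower, with Gstm1 at -0.98 (edgeR adjusted p = 0.0163) and Cat, catalase, the other gene called lower, at -0.73 (edgeR adjusted p = 0.122). Mt1, a metallothionein, rose from 81.1, 59 and 145 CPM to 182, 242 and 224 CPM (1.19 ± 0.24, edgeR adjusted p = 0.00456).

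Of 10 complement and acute phase genes 5 were called higher and 0 lower, with a median of 1.1, among them Serping1, an inhibitor of complement C1, from 51.3, 38.8 and 49.2 CPM to 102, 119.8 and 121 CPM (1.30 ± 0.17, edgeR adjusted p = 0.000128). Of 23 interferon response genes 0 passed both thresholds, and the RNA sensor Ifih1 rose by 0.95 ± 0.16 (edgeR adjusted p = 0.00167). Of 12 genes of MHC antigen presentation 0 passed both thresholds and 4 rose on the adjusted p alone, among them H2-K1 from 167, 172 and 198 CPM to 341, 309.8 and 318 CPM (0.85 ± 0.14, edgeR adjusted p = 0.00112). The groups did not overlap at Serping1, Ifih1 and H2-K1, and the mutant libraries were close to one another. Among the other MHC genes Tapbp no longer passed with pan-endocrine scaling (0.122), with the acinar covariate (0.113) and without wild-type replicate 2 (0.0664), and H2-D1 no longer passed without scaling (0.0641), with pan-endocrine scaling (0.139), with the acinar covariate (0.092), without mutant replicate 3 (0.0649), without wild-type replicate 1 (0.103) and without wild-type replicate 2 (0.0676), adjusted p in parentheses.

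Of 16 TFIID subunits 0 passed both thresholds and 4 rose on the adjusted p alone, and their median of 0.43 became 0.17 when pan-endocrine genes set the scale. Of these, Taf6 no longer passed with pan-endocrine scaling (0.0951), Taf12 without scaling (0.0645), with pan-endocrine scaling (0.181), without mutant replicate 2 (0.075), without mutant replicate 3 (0.0571), without wild-type replicate 1 (0.0996) and without wild-type replicate 2 (0.0644), and Taf13 without scaling (0.0531), with pan-endocrine scaling (0.15), with the acinar covariate (0.0833), without mutant replicate 1 (0.0563), without mutant replicate 3 (0.0688), without wild-type replicate 1 (0.117) and without wild-type replicate 3 (0.0637), adjusted p in parentheses. Taf5, a scaffold subunit, rose from 9.81, 8.11 and 9.77 CPM to 18.5, 16.2 and 15.8 CPM (0.87 ± 0.17, edgeR adjusted p = 0.00366), and Usmg5, which overlaps it on the opposite strand, had a value of 1.0. Tbp, the TATA-binding protein, had a value of -0.08 (edgeR adjusted p = 0.736). Of 29 Mediator subunits 0 passed both thresholds, with a median of 0.26. Of 18 chromatin remodellers 0 passed both thresholds, and the X-linked Smarca1 rose from 30.9, 23.1 and 37.4 CPM to 57.3, 55.9 and 65.5 CPM (0.97 ± 0.18, edgeR adjusted p = 0.00226). Of the 17 factors that the study named from single cells of related islets, and which are not independent evidence, 3 were called higher, among them Ddit3, and 0 lower.

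Of 9 progenitor genes 1 was called higher and 3 lower, with Fev, a factor of endocrine development, from 8.87, 6.61 and 10.3 CPM to 23.5, 19.7 and 22.9 CPM (1.36 ± 0.19, edgeR adjusted p = 0.000241). Aldh1a3, Onecut1 and Sox9, the 3 called lower, were not called with the acinar covariate. Of 20 matrix and integrin genes Fn1 was called higher and the integrins Itga6 (-1.11 ± 0.19, edgeR adjusted p = 0.00123) and Itgb4 (-1.70 ± 0.32, edgeR adjusted p = 0.00313) lower. That is 15% of the matrix and integrin list called, beside 4.57% of all genes. On the adjusted p alone 4 members rose and 2 fell. The integrin Itga3 was among those that rose (0.58 ± 0.16, edgeR adjusted p = 0.0239), though not with pan-endocrine scaling (edgeR adjusted p = 0.179). Itga3 also no longer passed without mutant replicate 2 (0.0682), without mutant replicate 3 (0.0509), without wild-type replicate 1 (0.0726) and without wild-type replicate 2 (0.103), edgeR adjusted p in parentheses. With the covariate Itga6 was at -0.87 (edgeR adjusted p = 0.0304) and Itgb4 at -0.82 (edgeR adjusted p = 0.211), and neither passed both thresholds. Of 17 lysosomal genes the protease Ctsz was called higher (1.03 ± 0.18, edgeR adjusted p = 0.00182), and of 15 ChREBP and fatty acid synthesis genes Acacb was called lower (-1.49 ± 0.28, edgeR adjusted p = 0.00262), at -0.96 with the covariate (edgeR adjusted p = 0.0976). Of 17 hypoxia targets, 20 cholesterol genes and 24 cell cycle genes 0 passed both thresholds in edgeR. At an unadjusted p below 0.05 stood 5 hypoxia targets, 5 cholesterol genes, 5 cell cycle genes, 7 exocytosis genes, 5 islet transcription factors, 3 pan-endocrine genes, 9 TFIID subunits, 8 Mediator subunits, 4 remodellers, 2 interferon response genes, 5 MHC genes and 0 Schwann cell markers. The share of all genes tested at that threshold was not counted, so these numbers have no background beside them. That share is no smaller than the 9.76% past the adjusted p. DESeq2 called 1 hypoxia target higher and 0 members of these other lists. The medians of the hypoxia, cholesterol, clock, exocytosis, matrix and cell contact lists took either sign depending on the scaling. So did those of the islet transcription factor, interferon, MHC, NRF2, remodeller, lysosomal, ion channel, glucose entry, endothelial and pericyte lists, among others.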

How the data were processed

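RNA-seq of isolated islets was analysed from the deposited table, which holds raw read counts per Ensembl gene for 11 of the 12 samples. Per the submitters' processing notes and the methods, the authors used bcl2fastq 2.17.1.14, cutadapt 1.10, Bowtie2 2.2.8 to remove ribosomal reads, STAR 2.5.3a on mm9 and HTSeq for uniquely aligned, unambiguous reads; the strand setting is not given in the sources used here. The median transcript length per gene, an other value in bases, was taken from the table as deposited. The authors' own comparison lists, which hold group averages, fold changes and adjusted p-values, were not used.

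The counts were filtered with filterByExpr, scaled by TMM and fitted with the quasi-likelihood model of edgeR 4.0.16 (limma 3.58.1, R 4.3.3) over the 4 groups (7 residual degrees of freedom). The contrast was Taf4 mutant at 1 week minus wild type. Genes were called at a Benjamini-Hochberg adjusted p below 0.05 and a log2 fold change beyond 1. The standard error is the log2 fold change divided by the square root of F. Shares of counts were compared with exact permutation tests (scipy 1.17.1). Intervals cover counting error only. Genes were named from a fixed set, the 15 largest fold changes in each direction among non-overlapping genes of at least 10 CPM outside the acinar and sex-linked lists, the 8 largest differences of CPM in each direction outside the acinar list, and up to 4 members of each of 40 gene lists with the smallest adjusted p, with members that define a list; genes outside this rule were chosen after their values were seen. Members and lists were chosen with earlier results of these data known. Promoters come from RefSeq GRCm38.p6, matched by symbol, and gene coordinates are of NCBIM37. DESeq2 1.42.0, other scalings, no filter, only the 6 libraries, an acinar covariate, a replicate block and each library left out in turn were alternatives. Simulated data for this comparison, over 18645 genes with the same dispersion for all, were scored on the adjusted p alone, without the fold threshold. It was passed in the right direction by 47 of 100 genes changed by a log2 fold of 1. The same held for 100 of 100 genes changed by 2, and 4 unchanged genes passed it. Some results of the named-gene rule are not reported here.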

Additional observations from a re-analysis of the deposited data

How the results depend on the processing

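Without scaling beyond library totals 616 genes were called higher and 365 lower, and with scaling on pan-endocrine genes 140 and 1133. With the acinar ratio as a covariate 613 were higher, and 396 lower. With 1 library left out in turn the number higher ranged from 221 to 447 and the number lower from 220 to 635, and the difference in acinar share from -35.1 to -22.8 percentage points. The other alternatives kept both numbers within 1.5 times, from 265 to 477 higher and from 447 to 739 lower, and the counts without the acinar and sex-linked lists (332 and 568) or without X and Y (307 and 570) were chosen after seeing the data. Single genes changed sign in 6 of 2053 values: Pdx1 at -0.21 with pan-endocrine scaling, -0.34 with the acinar covariate and -0.10 without mutant replicate 1 (-0.10 to 0.14 with 1 library left out in turn), Taf4a at -0.070 with pan-endocrine scaling, and Ctrc (0.038) and Try10 (0.36) with the acinar covariate. Ctrc and Try10 belong to the acinar list, from which that covariate is computed. Of the 137 named genes 133 passed the adjusted p, and 72 of these did so in every alternative that gave a value. The causes were not tested. Deviations of libraries with the same replicate number had correlations of 0.04, -0.03 and 0.19, and not every library was closest to its own number. With 3 libraries per group these values cannot tell whether the numbers pair the samples. With the replicate block over the 6 libraries 265 genes were called higher and 447 lower, against 295 and 527 in these libraries with no block. With the block 21 named genes no longer passed the edgeR adjusted p, among them Ins2 (0.124), Ins1 (0.103), Slc30a8 (0.0544), Sox9 (0.0651) and Taf12 (0.0642). Except for the insulin genes, the losses listed gene by gene above leave the block out.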
